A study of Rattus norvegicus with 4 samples.

Results

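The genes examined were those of the proteasome, the complex that breaks down proteins tagged with ubiquitin. They were the rows of the gene table whose symbol runs from Psma to Psmg and ends in a number, without Psmb8, Psmb9 and Psmb10, whose products form the catalytic sites of the immunoproteasome. This rule uses symbols and no measured values, and it found 44 genes among 32883. The rule is wider than the name constitutive proteasome. It takes in Psma8 and Psmb11, core subunits known from testis and thymus, as well as Psme1 and Psme2, which interferon is known to induce. It also misses the alpha ring gene Psma3, which the table lists as Psma3l, and values of Psma3l are given beside the members. RNA came from carotid bodies (CBs), the organs at the carotid bifurcation whose glomus cells sense arterial oxygen, of Sprague Dawley rats with no treatment given. Neonates were 5 days old and adults 21 days old, with 2 libraries per age and 4 in all. As labelled, each library pooled CBs of 6 pups or of 3 adults. The paper describes larger pools and a further replicate, which were not analysed here. By the paper both sexes were included. Adults were pups of the litters that were left to grow, and no source used here says whether the pools of an age came from separate litters, so p-values measure the spread between these pools.

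The proteasome has a barrel-shaped core particle and a regulatory particle that caps it. The core is built of stacked alpha and beta rings, and 3 of the beta subunits carry the sites that cut peptide bonds. In the regulatory particle, a base of ATPases unfolds substrates and threads them into the core, while a lid removes ubiquitin. Chaperones put each piece together, and other activators can replace the regulatory particle at the ends of the core. Dividing and growing cells are known for a high demand on this system, and the system also turns over the hypoxia-inducible factors once they are hydroxylated.

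The libraries held 36286191 to 39476110 estimated counts. The first principal component held 85.3% of the variance over the 13843 genes tested and parted the ages. Markers of glomus cells were present at both ages, with 8 of 8 genes tested and a summed level of 4130.5 to 5978 CPM over all libraries. Marker levels of other tissues differed between ages. The 3 parathyroid markers summed to 1796 and 212 CPM in the neonatal libraries, against at most 0.0504 CPM in the adult libraries. Erythroid markers summed to 5149 to 8850 CPM in neonates and 1920.2 to 2140.1 CPM in adults, and genes of dividing cells to 498 to 582 CPM and 130.4 to 132.6 CPM. Mitochondrially encoded mRNAs took 15.6% to 18.7% of the counts in neonates and 9.06% to 9.08% in adults. Levels are given as CPM (a count scaled to the depth of its library) after TMM normalization, which sets libraries on a common scale from genes that change little. Means are given ± SD over the 2 libraries of an age. Levels are not divided by transcript length and are compared between ages only. In pooled tissue, fewer cells of a type and less RNA per cell cannot be told apart.

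Proteasome genes were, as a group, moderately higher in neonatal CBs. Of the 44 genes, 42 passed the filter on low counts (1 CPM or more in 2 or more libraries). The quasi-likelihood test of edgeR, adjusted by Benjamini-Hochberg across the whole table, called 33 of these 42 higher in neonates (adjusted p under 0.05) and 1 lower, while 8 did not pass. Among all 13843 genes tested, 31.2% were higher by the same rule and 31.1% were lower. The median log2 fold change of the members, neonate over adult, was 0.44, or 1.35-fold, and that of all genes tested was -0.0029. The middle part of the members, from the lower to the upper quartile, lay between 0.25 and 0.60, whereas for all genes it lay between -0.54 and 0.45. The members thus kept to a narrow band on the positive side. Both neonatal libraries lay above both adult libraries for 36 of the 42 members, which held for 41.3% of all genes tested, and below them for 3, against 41.7% of all genes.

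None of the members reached a 2-fold difference. By edgeR, 0 passed an adjusted p under 0.05 with a fold change of at least 2 in either direction, a rule that 7.68% of all genes passed toward neonates and 13.2% toward adults. The largest log2 fold change was 0.86 (Psme4), so at an unadjusted p under 0.05 the count past 2-fold was necessarily 0 too. With DESeq2 and with limma-voom it was also 0 at an adjusted p under 0.05. For single members, the median absolute log2 difference between libraries of the same age was 0.060 in neonates and 0.076 in adults. The median fold change of the list ran from 0.35 to 0.48 (log2) with each library left out in turn. Scaled to library size alone, the median of all genes moved to -0.25, and 19 members were higher and 4 lower, in place of 33 and 1. Without neonate replicate 1, the library with most parathyroid RNA, 30 members were higher and 1 lower, with a median of 0.40. Relative to all genes the members stood at 0.44 under either scaling. A change of scaling shifts all genes nearly alike, so this value could not differ and is no check on the scaling. All 6 genes of dividing cells were also higher in neonates, and their part in the shift of the proteasome genes was not tested.

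**Figure D1:**
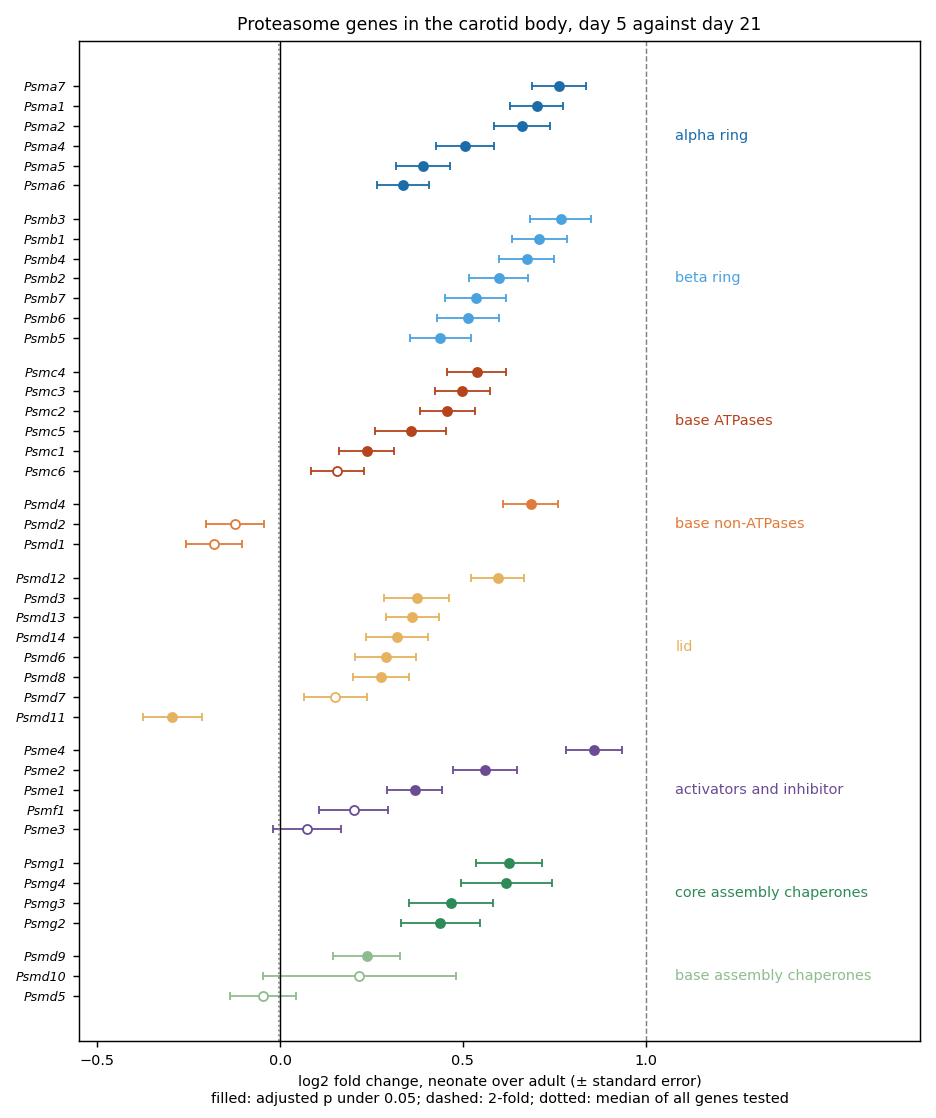
Log2 fold change, neonate over adult, of the 42 proteasome genes tested, ordered by role, with the standard error from edgeR as bars. Filled points passed an adjusted p under 0.05, the dashed line marks 2-fold and the dotted line the median of all genes. All 13 points of the alpha and beta rings are filled and positive, and Psmd11 is the only filled point below 0.

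Summed over all 44 genes, the proteasome took 5715 and 5618 CPM in neonates and 4283 and 4081 CPM in adults, 1.36-fold more in neonates. The ages did not overlap, and the exact two-sided permutation test over libraries gave p = 0.33, the smallest value that 2 libraries against 2 allow. As a share of all counts, without any normalization, the members made up 0.514% and 0.524% in neonates and 0.462% and 0.446% in adults. The sum was thus higher in neonates on both scales, by 1.14-fold on the second.

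**Figure D2:**
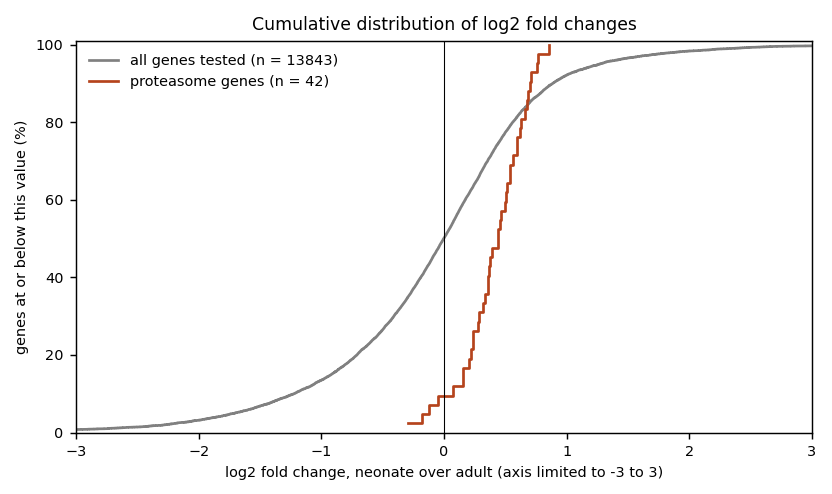
Cumulative share of genes at or below each log2 fold change (neonate over adult), for the 42 proteasome genes and for all 13843 genes tested. The curve of the proteasome genes is steep and lies almost wholly right of 0, between -0.29 and 0.86, while the curve of all genes is centred near 0 and is far wider.

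The alpha ring forms the gate through which substrates enter the core. All 6 of its genes in the table passed toward neonates, and their median was 0.58 on the log2 scale. Psma7 was at 226 and 227 CPM in the neonatal libraries and 135 and 132 CPM in the adult libraries. This was a 1.70-fold difference (log2 fold change 0.76, standard error 0.073, adjusted p = 3.9e-05 by edgeR). Psma7 thus differed far more between ages than between libraries of an age. Psma1 (1.63-fold, 180.2 ± 2.598 CPM in neonates and 111 ± 0.923 CPM in adults) and Psma2 (1.58-fold, 216 ± 5.24 CPM in neonates and 136 ± 5.33 CPM in adults) were close behind. Psma4, which has fractional counts, was 1.42-fold higher. Psma5 and Psma6 had the smallest changes of the ring, at 1.31-fold and 1.26-fold, with edgeR adjusted p of 0.0016 and 0.0031. Psma3l, the row outside the rule, was 1.44-fold higher (240.4 ± 2.85 CPM in neonates and 167 ± 3.04 CPM in adults, edgeR adjusted p = 0.00032), and it has fractional counts, the mark of reads split between similar copies. Scaled to library size alone, Psma5 and Psma6 did not pass, with edgeR adjusted p of 0.13 and 0.34.

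In the beta ring all 7 genes passed toward neonates, and their median was 0.60 on the log2 scale. The structural subunits that carry no active site, Psmb1, Psmb2, Psmb3 and Psmb4, had the larger changes. Psmb3, the second of all members by log2 fold change, was at 170.0 and 152 CPM in the neonatal libraries and 96.9 and 92.2 CPM in the adult libraries (1.70-fold, log2 fold change 0.77, standard error 0.083, adjusted p = 7.4e-05 by edgeR). Psmb1 was at 288 ± 1.46 CPM in neonates and 176 ± 0.841 CPM in adults, 1.63-fold higher. The ages were well apart for both genes, although the neonatal libraries of Psmb3 differed from each other by 0.16 on the log2 scale.

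The 3 catalytic subunits had smaller log2 fold changes than the other 4 of their ring. Psmb7, which gives the trypsin-like site, was at 191 and 172 CPM in the neonatal libraries and 130.2 and 121 CPM in the adult libraries. Psmb6, which gives the caspase-like site, was at 117 and 105 CPM in the neonatal libraries and 79.1 and 76.2 CPM in the adult libraries. Psmb5, the chymotrypsin-like subunit and main target of proteasome inhibitor drugs, was at 197 and 177 CPM in the neonatal libraries and 143 and 133 CPM in the adult libraries. In each case the first neonatal library was the highest and the ages did not overlap. By edgeR the log2 fold change was 0.53 for Psmb7 (standard error 0.084, adjusted p = 0.00056) and 0.51 for Psmb6 (standard error 0.084, adjusted p = 0.00076). For Psmb5 it was 0.44 (standard error 0.084, adjusted p = 0.0018). The difference between catalytic and structural subunits was not tested. Psmb6 has fractional counts. Scaled to library size alone, Psmb5 did not pass, with an edgeR adjusted p of 0.070.

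The base ring of ATPases, which unfolds substrates, was higher in neonates for 5 of 6 genes (median on the log2 scale 0.41). Psmc4 led at 1.45-fold (158 ± 3.89 CPM in neonates and 109 ± 7.53 CPM in adults), followed by Psmc3 at 1.41-fold and Psmc2 at 1.37-fold. Psmc5 (1.28-fold, edgeR adjusted p = 0.011) and Psmc1 (1.18-fold, edgeR adjusted p = 0.022) were smaller. Psmc6 was at 109.8 and 109.8 CPM in the neonatal libraries and 99.1 and 97.9 CPM in the adult libraries and did not pass (log2 fold change 0.16, adjusted p = 0.087 by edgeR), even though its libraries did not overlap. The calls of Psmc5 and Psmc1 were lost on library size alone (edgeR adjusted p of 0.32 and 0.94) and when some libraries were left out. Without neonate replicate 1 or adult replicate 2, Psmc5 had an edgeR adjusted p of 0.066 or 0.073. For Psmc1 it was 0.10 without neonate replicate 2, 0.058 without adult replicate 1 and 0.13 without adult replicate 2.

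The other base subunits did not move together. Psmd4, a receptor that binds ubiquitin chains, was at 129 and 123 CPM in the neonatal libraries and 77.1 and 79.7 CPM in the adult libraries, 1.61-fold higher in neonates (log2 fold change 0.68, standard error 0.075, adjusted p = 7.9e-05 by edgeR). Psmd1 and Psmd2, the large scaffold proteins of the base on which ubiquitin receptors and shuttle factors dock, did not follow. Psmd2 was at 197 and 182 CPM in the neonatal libraries and 209 and 203 CPM in the adult libraries (log2 fold change -0.12, adjusted p = 0.20 by edgeR). Psmd1 was at 127 and 121 CPM in the neonatal libraries and 144 and 136 CPM in the adult libraries (log2 fold change -0.18, adjusted p = 0.066 by edgeR). Both scaffold genes had their lower levels in neonates in every library, by less than 0.20 on the log2 scale in the mean, and neither passed. Without adult replicate 2, Psmd1 did pass toward adults (log2 fold change -0.25, edgeR adjusted p = 0.046). On library size alone both passed toward adults, Psmd1 at -0.42 and Psmd2 at -0.37.

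Of the 8 lid genes, 6 were higher in neonates, 1 was lower and 1 did not pass, with a median log2 fold change of 0.30. Psmd12 stood highest, at 152 and 154 CPM in the neonatal libraries and 101.1 and 101.8 CPM in the adult libraries (1.51-fold, edgeR adjusted p = 0.00013), and has fractional counts. Psmd14, the enzyme that cuts ubiquitin chains off substrates, was at 66.7 ± 0.680 CPM in neonates and 53.4 ± 0.762 CPM in adults, 1.25-fold higher (edgeR adjusted p = 0.0097). Psmd3, Psmd6, Psmd8 and Psmd13 were between 1.21-fold and 1.30-fold higher, and Psmd7, the partner of Psmd14, was not past the threshold at 115 ± 7.83 CPM in neonates and 103 ± 7.22 CPM in adults (edgeR adjusted p = 0.15). Most of these calls did not hold under every alternative. On library size alone Psmd3, Psmd6, Psmd8, Psmd13 and Psmd14 did not pass, with edgeR adjusted p from 0.23 to 0.75, which left Psmd12 as the only lid gene called higher. Without adult replicate 2, edgeR's adjusted p was 0.053 for Psmd3, 0.14 for Psmd6, 0.077 for Psmd8 and 0.091 for Psmd14. It was 0.063 for Psmd14 without adult replicate 1 and 0.061 for Psmd8 without neonate replicate 1.

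Psmd11 was the only member called higher in adults. This lid subunit, which holds the regulatory particle onto the core and is known to favour the assembled complex, was at 66.7 and 67.7 CPM in the neonatal libraries and 83.96 and 80.9 CPM in the adult libraries. Both neonatal values lay below both adult values, a 1.23-fold difference toward adults (log2 fold change -0.29, standard error 0.080, adjusted p = 0.011 by edgeR). Psmd11 kept its direction and its call in every alternative run, including each library left out in turn.

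**Figure D3:**
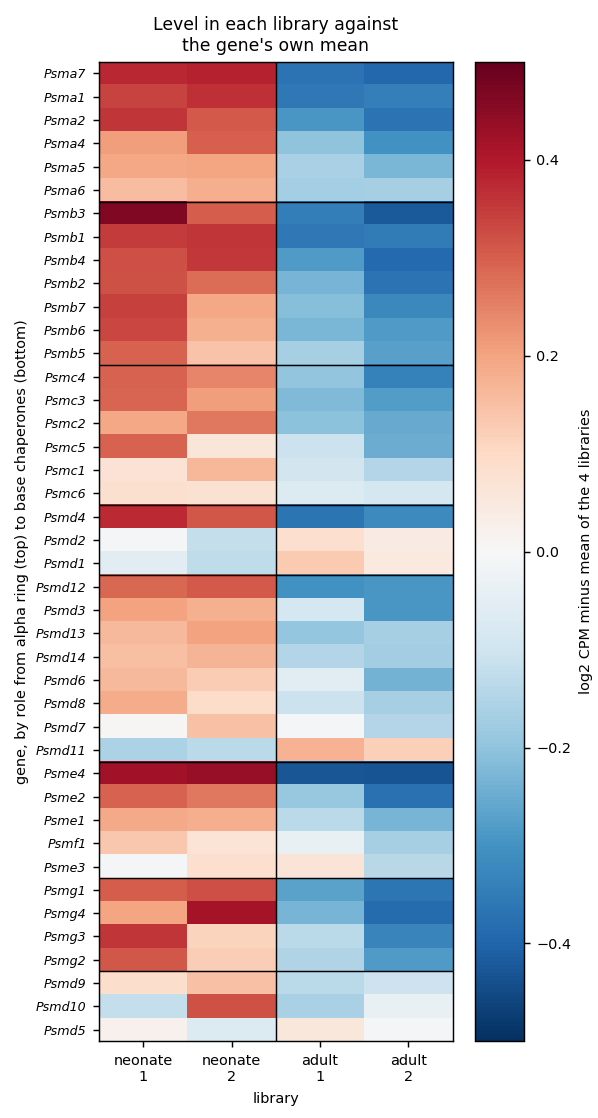
Level of each tested proteasome gene (rows, by role) in each of the 4 libraries (columns), as log2 CPM minus the gene's mean over the libraries. Red is above and blue below that mean. Rows of the rings are red in both neonatal and blue in both adult libraries, and Psmd1, Psmd2 and Psmd11 show the opposite order.

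Among activators, the nuclear activator gene Psme4 had the largest log2 fold change of all members. Psme4, whose product caps the core without ATP and is known for roles in chromatin repair and in germ cells, was at 347 and 351 CPM in the neonatal libraries and 193 and 192 CPM in the adult libraries. The libraries of an age were nearly identical and the ages far apart, at 1.81-fold (log2 fold change 0.86, standard error 0.077, adjusted p = 2.8e-05 by edgeR). Psme1 and Psme2 encode the paired activator that interferon induces. Psme2 was at 109 and 106 CPM in the neonatal libraries and 77.6 and 68.3 CPM in the adult libraries (1.47-fold, edgeR adjusted p = 0.00056). Psme1 was at 187 and 186 CPM in the neonatal libraries and 149 and 139.5 CPM in the adult libraries (1.29-fold, edgeR adjusted p = 0.0025), and both were higher in neonates. Psme3, the nuclear relative of this pair, was at 87.6 and 93.2 CPM in the neonatal libraries and 91.9 and 79.9 CPM in the adult libraries, with overlapping ages (log2 fold change 0.074, adjusted p = 0.50 by edgeR). The inhibitor and assembly factor Psmf1 was at 45.7 and 43.7 CPM in the neonatal libraries and 40.6 and 37.1 CPM in the adult libraries (log2 fold change 0.20, adjusted p = 0.090 by edgeR). Neither Psme3 nor Psmf1 passed the threshold. Psme1 did not pass on library size alone (edgeR adjusted p = 0.20).

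All 4 chaperones that assemble the core, Psmg1 to Psmg4, were called higher in neonates (median on the log2 scale 0.54). Psmg1 was at 56.5 ± 0.565 CPM in neonates and 36.6 ± 1.67 CPM in adults (1.54-fold, edgeR adjusted p = 0.00035), and Psmg4 was at 24.4 ± 2.61 CPM in neonates and 15.9 ± 1.18 CPM in adults (1.53-fold, edgeR adjusted p = 0.0023). Psmg2 and Psmg3 were 1.35-fold and 1.38-fold higher, with edgeR adjusted p of 0.066 and 0.076 once adult replicate 2 was left out and of 0.14 and 0.11 on library size alone. The chaperones of the base differed less. Psmd9 was 1.18-fold higher at an edgeR adjusted p of 0.047, and it missed the threshold with DESeq2 (adjusted p = 0.11), with limma-voom (adjusted p = 0.058) and with each library left out, for which edgeR's adjusted p ran from 0.061 to 0.26. Psmd5 was at 56.9 and 53.5 CPM in the neonatal libraries and 58.3 and 55.8 CPM in the adult libraries and Psmd10 at 4.03 and 5.46 CPM in the neonatal libraries and 3.902 and 4.26 CPM in the adult libraries. Neither Psmd5 (edgeR adjusted p = 0.67) nor Psmd10 (edgeR adjusted p = 0.49) passed, and the ages overlapped in both. On library size alone Psmd5 passed toward adults (log2 fold change -0.29, edgeR adjusted p = 0.020), and Psmd9 did not pass (edgeR adjusted p = 0.95).

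The tissue-specific subunits were at the limit of detection and were not tested. Psma8, known from germ cells, had 8 and 5 counts in the neonatal libraries and 8 and 4 in the adult libraries. Psmb11, known from thymic epithelium, had 0 counts in both neonatal libraries and 3 in each adult library, which is at the floor of 3 counts used here. No fold is given for either gene.

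Among the members, the balance of core to regulatory particle differed between ages. Within a library, the summed level of the 13 core genes relative to the 17 genes of the regulatory particle, as a log2 ratio, was 0.048 and 0.041 in the neonatal libraries and -0.28 and -0.27 in the adult libraries. The libraries of an age differed by less than 0.01 and the ages by 0.32, with no overlap (exact two-sided permutation p = 0.33, the smallest this design allows). This ratio does not move with the scaling between libraries, and without members with fractional counts the difference was 0.35. By part, the summed level was 1.53-fold higher in neonates for the beta ring, 1.49-fold for the alpha ring, 1.31-fold for the ATPases and 1.22-fold for the lid. For the other base subunits the sum was 453 and 426 CPM in neonates and 431 and 419 CPM in adults, with overlapping ages. As CPM are not per length, the ratio gives no subunit stoichiometry. The rule leaves some subunits out of both sums, and those named here were higher in neonates. For the core this is Psma3l (mean 240.4 CPM in neonates and 167 CPM in adults). For the regulatory particle these are Sem1 (207 and 115 CPM) and Adrm1 (100.8 and 66.1 CPM). The ratio with these genes included was not calculated.

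The 250 bases before the start of 4 genes are shown to set the promoters of the members at both ends of the order side by side, Psme4 and Psmb3 with the largest changes toward neonates and Psmd1 and Psmd11 with the largest toward adults. Sequences are from RefSeq on the assembly GRCr8, which is not the build of the counts, and read 5′ to 3′ along the gene. Psme4 lies at chr14:108706393-108706642, plus strand, Psmb3 at chr10:83193537-83193786, plus strand, Psmd1 at chr9:94157721-94157970, plus strand and Psmd11 at chr10:65932093-65932342, plus strand. Capitals mark matches on either strand to the core of the antioxidant response element (TGANNNNGC), the CCAAT box (CCAAT) and the core of the ETS site (CCGGAA).
Psme4: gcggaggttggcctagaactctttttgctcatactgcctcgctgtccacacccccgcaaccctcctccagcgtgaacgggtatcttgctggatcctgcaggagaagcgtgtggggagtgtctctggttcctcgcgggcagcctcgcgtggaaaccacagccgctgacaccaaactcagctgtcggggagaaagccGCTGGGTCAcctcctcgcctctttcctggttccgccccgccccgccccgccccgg
Psmb3: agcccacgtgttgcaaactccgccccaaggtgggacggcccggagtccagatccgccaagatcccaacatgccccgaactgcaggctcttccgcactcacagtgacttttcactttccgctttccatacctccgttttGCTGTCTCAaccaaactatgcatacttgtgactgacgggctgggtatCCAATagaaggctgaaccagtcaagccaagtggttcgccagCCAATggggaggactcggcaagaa
Psmd1: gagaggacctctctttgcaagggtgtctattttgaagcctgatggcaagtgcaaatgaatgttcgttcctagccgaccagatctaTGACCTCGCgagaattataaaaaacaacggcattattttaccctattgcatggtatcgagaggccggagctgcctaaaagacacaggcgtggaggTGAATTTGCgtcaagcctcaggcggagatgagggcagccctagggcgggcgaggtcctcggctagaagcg
Psmd11: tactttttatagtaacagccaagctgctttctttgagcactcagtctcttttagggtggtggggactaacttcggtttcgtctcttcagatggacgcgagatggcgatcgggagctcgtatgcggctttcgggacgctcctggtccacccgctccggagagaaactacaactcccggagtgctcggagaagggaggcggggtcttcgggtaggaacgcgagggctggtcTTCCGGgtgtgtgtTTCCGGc

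The antioxidant response element is the sequence through which the factor encoded by Nfe2l1 is known to raise proteasome genes when proteasomes are short. Its core letters began 55 bases before the start of Psme4, 112 bases before that of Psmb3, and 165 and 70 bases before that of Psmd1, and they were not in this window of Psmd11. Psmb3 also held CCAAT boxes 65 and 24 bases before the start, and Psmd11 held ETS cores 21 and 7 bases before it. Of the 39 members with a promoter entry, 15 (38.5%) had the response element core, against 34.8% of 21851 promoters of protein-coding genes. CCAAT was in 46.2% of members and 35% of all promoters, and the ETS core in 48.7% and 15.1%. By part, the response element core was in 6 of 12 core particle members (50%) and 5 of 14 regulatory particle members (35.7%). For CCAAT the shares were 66.7% and 35.7%, and for the ETS core 33.3% and 64.3%. These differences between the parts were not tested. These are counts of letters and not of bound sites. The pattern TGANNNNGC leaves 4 positions free and matched 34.8% of all promoters, so these shares cannot show whether the element is used. This pattern was present in Psme4 and Psmb3, which were higher in neonates, and in Psmd1. Any role of the element in the age differences was not tested.

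The 3 catalytic subunits of the immunoproteasome, left out of the members by the rule, take the places of Psmb5, Psmb6 and Psmb7 in cells exposed to interferon. Psmb8 and Psmb9 did not share the direction of the members. Psmb8 was at 10.7 and 13.1 CPM in the neonatal libraries and 21.0 and 19.3 CPM in the adult libraries (1.69-fold higher in adults, log2 fold change -0.76, standard error 0.14, adjusted p = 0.0016 by edgeR). Psmb9 was at 7.83 and 9.19 CPM in the neonatal libraries and 12.9 and 11.6 CPM in the adult libraries (1.44-fold higher in adults, edgeR adjusted p = 0.026). Psmb10 was at 24.8 and 23.8 CPM in the neonatal libraries and 20.9 and 21.1 CPM in the adult libraries and did not pass (log2 fold change 0.21, adjusted p = 0.10 by edgeR). Psmb8 and Psmb9 were lower in both neonatal libraries than in both adult libraries. Psmb8 has fractional counts, and Psmb9 lost its call without neonate replicate 1 (edgeR adjusted p = 0.079), adult replicate 1 (0.16) or adult replicate 2 (0.066).

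Set against the subunit that it replaces, each immunoproteasome gene was relatively lower in neonates. The log2 ratio of Psmb8 to Psmb5 was -4.19 and -3.75 in the neonatal libraries and -2.76 and -2.78 in the adult libraries, a 2.30-fold change of the ratio. For Psmb9 to Psmb6 it was -3.89 and -3.50 in the neonatal libraries and -2.61 and -2.71 in the adult libraries, a 2.05-fold change. For Psmb10 to Psmb7 it was -2.94 and -2.86 in the neonatal libraries and -2.64 and -2.51 in the adult libraries, a 1.25-fold change. The ages did not overlap in any of the 3 ratios, and the mean of the 3 differed by -0.85 (exact two-sided permutation p = 0.33, the smallest possible). Leaving out 1 library at a time gave -0.70 to -1.01. Leukocyte markers had a summed level of 27.9 and 31.7 CPM in neonates and 56.4 and 60.7 CPM in adults over 5 markers, of which Ptprc and Csf1r were lower in neonates, Cd79a was higher, Cd68 did not pass and Cd3e, at 0.221 CPM or less, was not tested. Of 7 interferon-response genes, 5 were lower in neonates, against 31.1% of all genes tested. Among these 5 were Irf8 (2.10-fold higher in adults, edgeR adjusted p = 0.0012) and Tapbp (1.76-fold higher in adults, edgeR adjusted p = 0.00024). The other 2, B2m and Nlrc5, did not pass. The part of leukocytes in these ratios was not tested. Psme1 and Psme2, though inducible by interferon too, were higher in neonates, as given above.

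**Figure D4:**
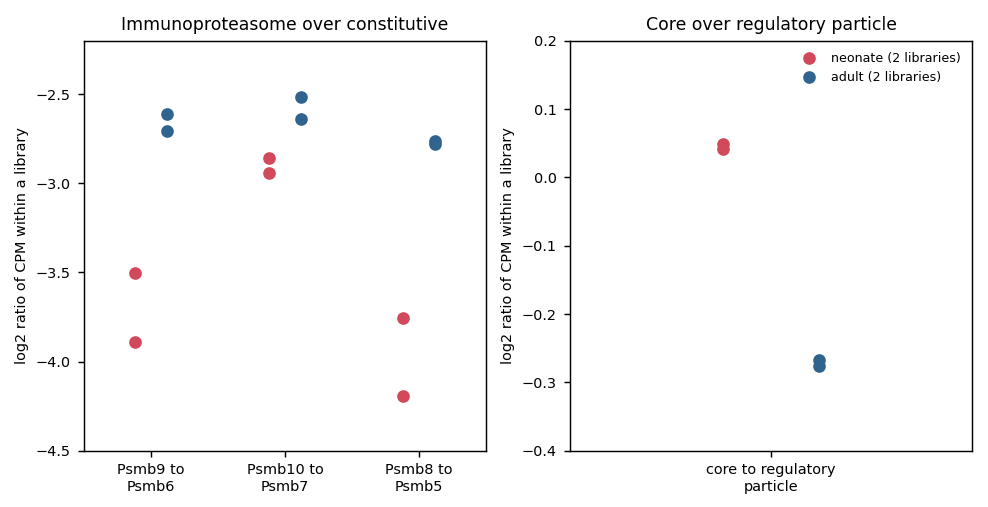
Log2 ratios of CPM within each of the 4 libraries. The left panel shows each immunoproteasome gene over the constitutive gene it replaces, and in every pair both neonatal points lie below both adult points. The right panel shows core members over regulatory particle members. There the neonatal points lie near 0.04 to 0.05 and the adult points near -0.27 to -0.28.

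Subunits and partners of the proteasome whose symbols fall outside the rule largely followed the members. Of 12 genes listed, 11 were found and tested, with 9 higher in neonates, 1 lower and 1 not past the threshold. Their median log2 fold change was 0.41, and 31.2% of all genes tested were called higher in neonates. Pomp, the chaperone that matures the core, was at 184 and 181 CPM in the neonatal libraries and 105 and 94.0 CPM in the adult libraries (1.83-fold, edgeR adjusted p = 3.4e-05). Sem1, a small lid subunit, was at 203 and 212 CPM in the neonatal libraries and 121 and 109 CPM in the adult libraries (1.81-fold, edgeR adjusted p = 4.0e-05). Adrm1, a ubiquitin receptor of the regulatory particle, was at 100.8 ± 0.531 CPM in neonates and 66.1 ± 6.26 CPM in adults (1.52-fold, edgeR adjusted p = 0.00040). Akirin2, which brings proteasomes into the nucleus, was 1.88-fold higher (edgeR adjusted p = 7.5e-05). The deubiquitinases Usp14 and Uchl5 were 1.27-fold and 1.32-fold higher. The ubiquitin ligase Ube3c was 1.62-fold higher in adults (edgeR adjusted p = 0.00016), and Ecpas, a clamp between core and cap, was at 156 ± 10.3 CPM in neonates and 174 ± 3.07 CPM in adults and did not pass. Pomp and Ube3c have fractional counts.

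Of 9 listed genes of factors that govern proteasome transcription, 8 were tested, 5 were lower in neonates and 3 did not pass. Among all genes tested, 31.1% were called lower in neonates. Nfe2l1 was at 19.7 and 18.9 CPM in the neonatal libraries and 84.6 and 84.3 CPM in the adult libraries. The libraries of an age lay within 1 CPM of each other, and the level in adults was 4.37-fold that in neonates (log2 fold change -2.13, standard error 0.093, adjusted p = 1.4e-06 by edgeR). Ddi2, the protease that cuts the Nfe2l1 product into its active form, was 1.29-fold higher in adults (edgeR adjusted p = 0.012). The partners Maff and Mafk were 1.92-fold and 1.71-fold higher in adults, and Nfe2l2, the related stress factor, was 1.23-fold higher in adults (edgeR adjusted p = 0.013). Mafg, Keap1 and Ngly1 did not pass, with log2 fold changes of 0.13, 0.070 and 0.10, and Nfe2l3, at a mean of 1.05 CPM in neonates and 0.671 CPM in adults, was not tested. Nfe2l1 mRNA and the proteasome mRNAs thus differed between ages in opposite directions, and no relation between them was tested. The level of the Nfe2l1 mRNA does not give that of the active factor, which is known to be set largely after translation.

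**Figure D5:**
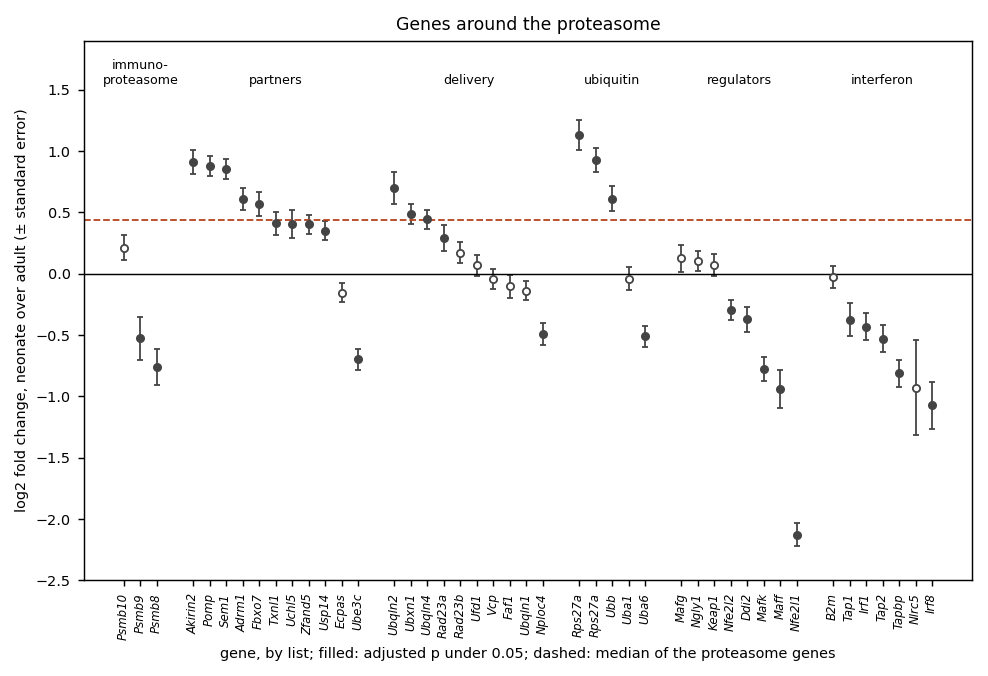
Log2 fold change, neonate over adult, with its standard error, of genes around the proteasome by list. Filled points passed an adjusted p under 0.05 in edgeR, and the dashed line is the median of the 42 proteasome genes. Most partners lie near or above that line, 5 of 7 interferon genes are filled and below 0, and Nfe2l1 lies lowest at -2.13.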

How the data were processed

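RNA of pooled CBs was sequenced after poly A+ selection in 2 neonatal and 2 adult libraries. The deposited table holds estimated counts per gene, which the authors made by trimming, STAR and Salmon 1.5.2 on Rnor 6.0, with transcripts summed to genes and no normalization. Between 5.02% and 6.19% of rows per library hold fractional estimates, where reads are shared between copies.

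Values were rounded to whole numbers. Tests used edgeR 4.0.16 under R 4.3.3 (TMM, quasi-likelihood, no covariates), with DESeq2 1.42.0 and limma 3.58.1 as alternatives. Rows with a biotype that is not protein-coding (634) were dropped, and the filter on low counts asked for 1 CPM or more in 2 or more libraries. Symbols were matched to a RefSeq table of GRCr8, and 13680 rows had no biotype and stayed in. P-values were adjusted over all 13843 genes tested. The fits were tested on simulated data. The first such test drew a separate spread for each gene, missed the recovery set for it and gave more false calls than the adjustment allows. After that failure the test was changed to spreads from the trend, its smallest change was made larger and the recovery asked for was lowered, and it then passed. With a spread for each gene, false calls stayed above the nominal rate. Calls near the threshold are therefore less certain than their adjusted p states. Log ratios used a prior count of 2. At the depth given, the floor of 3 counts is 0.0760 to 0.0827 CPM and covers counting error only.

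Members and lists were chosen with earlier results of these data known. Values per library are given for the catalytic subunits and for the 3 highest and 3 lowest members by log2 fold change. They are also given for members against the median's sign (among them Psmd5), the activators and the tissue-specific genes. Other genes named come from the lists. Further members given by library (Psmc6, Psmd4, Psmd10, Psmd12) were chosen after their values were seen. Of these lists, markers are reported as sums. For Rps27a, which has more than 1 row, the row with more reads is given. Counts of the libraries of an age differed well above sampling noise (chi-square per degree of freedom 32.6 and 15.4). Alternatives were other tests, scalings, filters, a replicate block and each library left out. Protein sequences were not used here, and some genes of the lists are not reported here.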

Additional observations from a re-analysis of the deposited data

How the results depend on the processing

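Counts, medians, sums and ratios kept their direction under every alternative run. On library size alone, 19 members were higher and 4 lower in neonates and their median log2 fold change was 0.19. Psmc1 (-0.0075), Psmd9 (-0.0077), Psmd10 (-0.025), Psmb10 (-0.035), Psmf1 (-0.044), Psmc6 (-0.088), Psmd7 (-0.092) and Psme3 (-0.17) changed sign there. This scaling moves all genes alike. With a mean of at least 5 CPM, 2 members were lower. With each library left out, 24 to 31 members were higher, 1 to 2 lower (2 without adult replicate 2), the median was 0.35 to 0.48, the summed level 0.38 to 0.47 (log2) and the log2 ratio of core to regulatory particle 0.31 to 0.32. Psmd10 (-0.0017 to 0.43) and Psmd5 (-0.10 to 0.015) changed sign without neonate replicate 2 and Psme3 (-0.050 to 0.15) without adult replicate 2. In these fits the lone library of an age is assumed to vary like the others.

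Deviations of libraries with the same replicate number had a correlation of -0.015 over all genes tested and of 0.38 over the members. No label ties the numbers to a shared litter or day, and with only 2 pairs the numbers were not taken to pair the libraries. With the replicate block, 33 members were higher and 2 lower, the added one being Psmd1 (edgeR adjusted p = 0.0499). Genes with few counts, such as Psmd10, are the least precise, with a standard error of 0.26.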

Other observations

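Of genes that encode ubiquitin, Ubb was 1.53-fold higher in neonates (edgeR adjusted p = 0.00082). Rps27a, which encodes ubiquitin fused to a ribosomal protein, was 1.904-fold higher in the row with more reads, and it has fractional counts. Of the activating enzymes, Uba1 was at 240.1 ± 6.92 CPM in neonates and 247 ± 28.4 CPM in adults and did not pass, and Uba6 was 1.42-fold higher in adults (edgeR adjusted p = 0.00085). Among 10 genes that deliver substrates, 4 were higher in neonates, with Ubqln2 at 1.63-fold, Nploc4 was 1.41-fold higher in adults, and 5 did not pass, among them Vcp at 397 ± 13.4 CPM in neonates and 409 ± 10.1 CPM in adults. The median of these 10 was 0.12, and 31.2% of all genes tested were called higher in neonates.

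Complexes related to the proteasome by fold or size were counted in the same way, against 31.2% of all genes called higher in neonates. The COP9 signalosome, which shares the folds of the lid, had 6 of 10 genes higher by edgeR and 4 not past the threshold, with a median log2 fold change of 0.24. The eIF3 complex, built on the same folds, had 7 of 11 higher and 4 not past, with a median of 0.37, and Eif3k passed 2-fold. The CCT chaperonin had 3 of 8 higher, a share near that of all genes, and 5 not past, with a median of 0.18. These medians compare with 0.44 for the proteasome genes, and differences between the complexes were not tested.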
